A study of Homo sapiens with 12 samples.

Results

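The 46 genes described here encode the initiation factors that bring ribosomes to the start codon of an mRNA, the 4E-binding proteins that restrain them, and the kinases that phosphorylate eIF2. They were chosen by gene symbol from a fixed list of eIF subunits, 4E-binding proteins and eIF2 kinases, and all 46 are among the 19219 gene rows of the deposited table. In initiation, eIF2 carries the initiator tRNA to the small ribosomal subunit, eIF3 holds the subunit ready, and the cap-binding complex eIF4F, made of eIF4E, eIF4G and the helicase eIF4A, recruits it to the mRNA. eIF2B reloads eIF2 with GTP after each round, and the eIF2 kinases answer stress by phosphorylating eIF2 so that it blocks eIF2B. The mRNAs of several of these factors begin with a terminal oligopyrimidine tract, which couples their translation to mTOR signalling.

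The study profiled ribosome footprints, the mRNA fragments protected by ribosomes, in HEK293, a long-established cell line from human embryonic kidney. The groups are a CRISPR-Cas9 knockout of CNBP with cycloheximide (3 samples), wild type with cycloheximide (5 samples), the knockout with harringtonine and cycloheximide (1 sample) and wild type with harringtonine and cycloheximide (3 samples). CNBP is a zinc-finger protein that binds G-rich stretches of mRNA, and the series asks how it acts on translation. Every group received cycloheximide, which stalls elongating ribosomes, while harringtonine holds ribosomes at start codons and lets the others run off. The column headers call the knockout KO6, and no source used here says how many clones it covers or whether samples came from separate cultures.

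The table holds 1 mean density per group and no value per sample, so no spread between replicates can be given, no test between groups was run, and nothing below is said to have changed. A density is the authors' footprint signal averaged over the samples of a group, on a scale that is not stated. Effective reads, an estimate of the reads behind a density, totalled 848679 for the knockout and 2142600 for wild type with cycloheximide, and 400913 for the knockout and 1133810 for wild type with harringtonine. CNBP itself had authors' mean densities of 2.20 in the knockout and 3.73 in wild type with cycloheximide, and of 2.36 in the knockout and 3.27 in wild type with harringtonine. Its log2 ratio, set against the median gene as below, was -0.32 (interval -0.58 to -0.07) and -0.19 (interval -0.59 to 0.20), so footprints of the targeted gene were present in the samples labelled knockout, and "knockout" below means the samples so labelled. The site of the edit was not used here. Of the HEK293 genes listed as markers, 5 of 6 were above 0 in the knockout and 5 of 6 in wild type with cycloheximide, and 4 of 6 in the knockout and 5 of 6 in wild type with harringtonine, with NEFM at 0 in all groups. Markers of other cells, with 7 of 8 found, summed to 0.101 in the knockout and 0.136 in wild type with cycloheximide. With harringtonine they summed to 0.194 in the knockout and 0.136 in wild type. PTPRC, CD3E and ALB were at 0 in all groups, while COL1A1, COL3A1 and DCN were above 0 in all. With cycloheximide COL1A1 was at 0.0571 in the knockout and 0.0595 in wild type, above the HEK293 markers NES and PAX2. NES had 0.00237 in the knockout and 0.00265 in wild type, and PAX2 had 0.00422 and 0.00937 in the same order.

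Ratios below are log2 of 1 authors' mean over another, minus the median over the 6045 genes whose level, the geometric mean of all 4 densities, was above 0.114. Intervals are 95% counting intervals, which leave out the spread between samples. Of the 46 members, 41 passed this filter. EIF2AK3, EIF2AK4, EIF4A1, EIF4E3 and EIF4EBP2 did not, and their values are given as densities. A gene is called higher or lower at 2-fold or more, and a smaller step of 1.5-fold is counted for the knockout comparisons. In libraries made from whole cultures, fewer cells that translate a gene and fewer footprints per cell cannot be told apart.

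Since 5′ oligopyrimidine tracts mark part of this family, the 20 bases around the annotated start of transcription are shown for some of the members discussed below. They come from RefSeq on GRCh38.p14, run from 5 bases before the start to 15 after it, and carry in capitals a C at the base before the start or at the first or second base after it, together with the pyrimidines that follow it, where there are at least 4 of these. The first 5 lines have such a tract and the last 3 do not. These lines are richer in tracts than the members with a start, of which 12 had a tract and 26 did not. EIF4G1, EIF2B1, EIF5B and EIF1AX, discussed below but not shown, had no tract. Also not shown, EIF2A, EIF2D, EIF3F, EIF3K, EIF4E2, EIF4G2 and EIF4EBP2 had one. No start was found for EIF2S2, EIF2AK1, EIF3A, EIF3E, EIF3G, EIF3H, EIF3L and EIF4EBP1, so nothing is said of a tract there.
EIF2S3 (chrX:24054951-24054970, plus strand): ccttCCTCTTTTggcaacat
EIF3D (chr22:36529152-36529171, minus strand): gtttCCTCTTTTCCTggttt
EIF3M (chr11:32583826-32583845, plus strand): gttcCCTTTTCCggtcggcg
EIF4A2 (chr3:186783572-186783591, plus strand): gctgtCTTTTCagtcgggcg
EIF4B (chr12:53006451-53006470, plus strand): cgggtCTTTTgcgttctctt
EIF2S1 (chr14:67360323-67360342, plus strand): tccgcatgcgcggtggagtg
EIF3J (chr15:44537142-44537161, plus strand): gtgctaactcctcgctagct
EIF4H (chr7:74174351-74174370, plus strand): tcaccctggttcctctcgga
Of 38 members with a start in the table, 12 (31.6%) had the tract at 1 start or more, beside 10.2% of 27305 genes, searched on the transcribed strand only. Annotated starts can lie some bases from those used in HEK293, and this definition was set with the sequences in view. Among the members compared, the median knockout ratio with cycloheximide was -0.09 for the 11 with a tract and -0.16 for the 22 without, and their ranges overlapped (-0.51 to 0.49 and -1.14 to 0.31). With harringtonine the medians were 0.22 with a tract and -0.20 without, again over overlapping ranges (-0.98 to 0.65 and -1.36 to 0.44).

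Densities of the members spanned a wide range, and their order was led by eIF3 subunits. With cycloheximide, EIF3I, a WD-repeat subunit of eIF3, had the highest density, 4.42 in the knockout and 6.86 in wild type, followed by EIF3K at 2.57 in the knockout and 3.72 in wild type and EIF2S3, the gamma subunit of eIF2 that binds GTP and the initiator tRNA, at 1.61 in the knockout and 2.69 in wild type. The median member was at 0.425 in the knockout and 0.638 in wild type, against 0.216 and 0.272 for the genes compared in the knockout and wild type. At the low end stood EIF4E3, a cap-binding protein of the eIF4E family, at 0.00850 in the knockout and 0.0164 in wild type, EIF2AK3, the endoplasmic reticulum stress kinase PERK, at 0.0157 in the knockout and 0.0337 in wild type, and EIF4A1 at 0.0798 in the knockout and 0.0446 in wild type. EIF4A1 encodes the main eIF4A helicase, and its value rests on 6.32 effective reads in the knockout and 8.03 in wild type. Its paralogue EIF4A2 had 0.321 in the knockout and 0.571 in wild type. No source used here says how reads that match more than 1 gene were assigned, so the levels of EIF4A1 and EIF4A2 are uncertain.

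**Figure D1:**
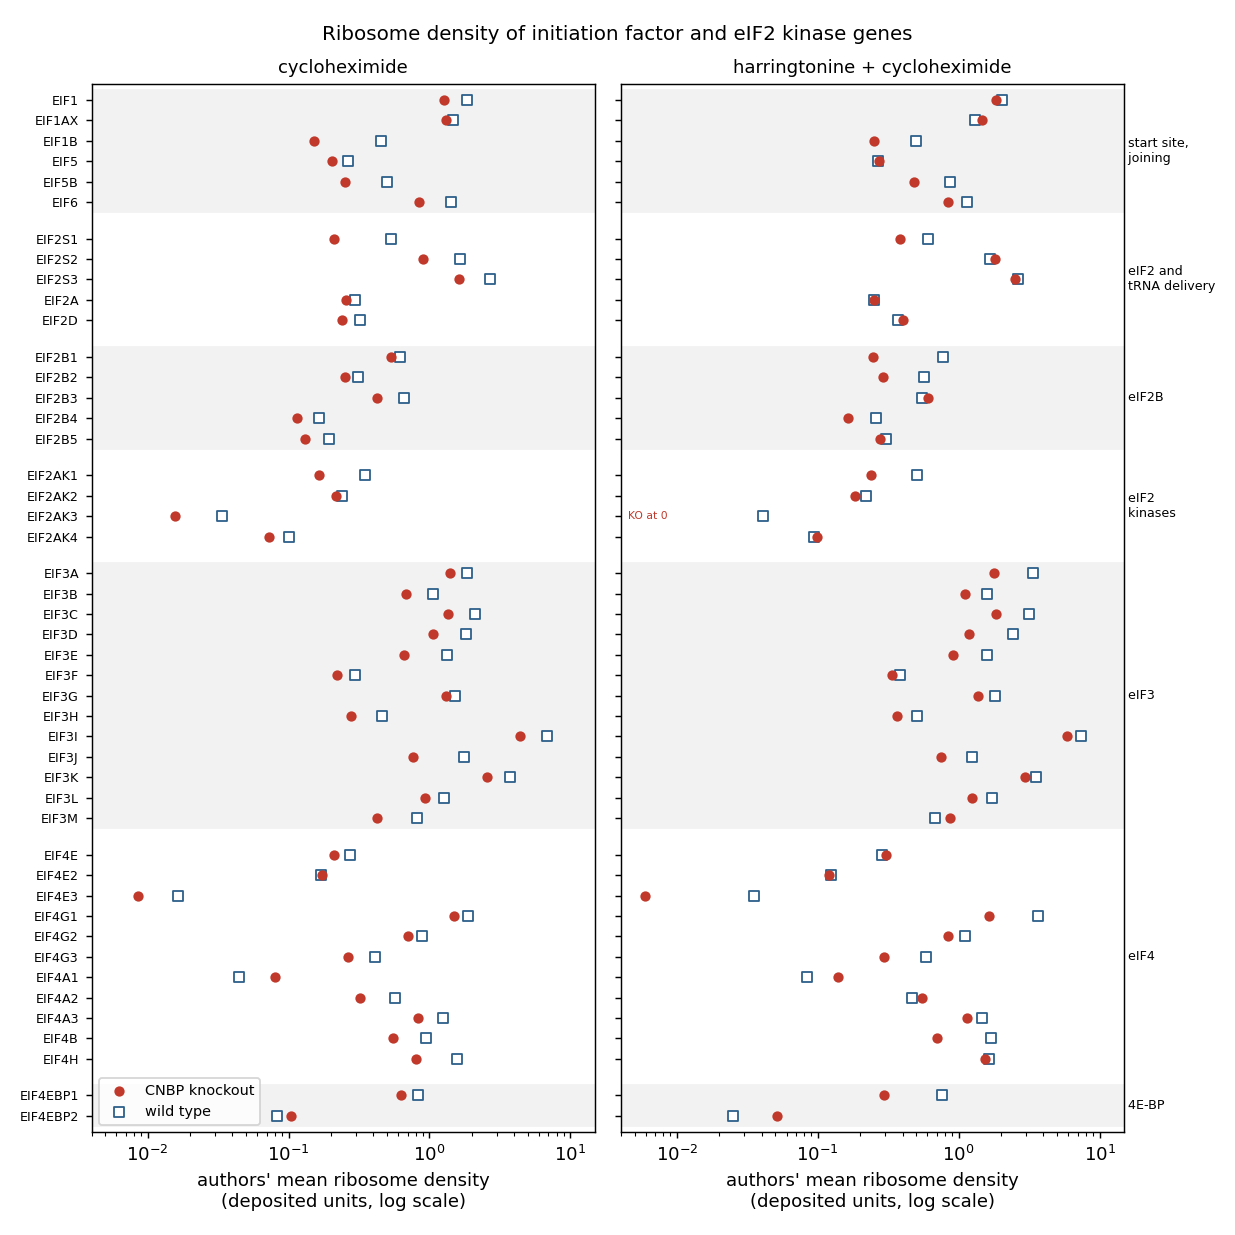
Authors' mean ribosome density (deposited units, log axis) of each member in the CNBP knockout (filled circles) and wild type (open squares), with cycloheximide on the left and harringtonine on the right; members run down the page by role, and no error bars can be drawn from group means. With cycloheximide the knockout lies left of wild type for most members, EIF4A1, EIF4E2 and EIF4EBP2 being on the other side. These densities are not centred, and the median gene compared also lies left, at a log2 ratio of -0.44. EIF2AK3 is at 0 in the knockout with harringtonine.

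The members together took 0.521% of all effective reads in the knockout and 0.698% in wild type with cycloheximide, and 0.610% in the knockout and 0.588% in wild type with harringtonine. Without C16orf93 and the MTRNR2L genes, which take large and unequal shares of each group, the values were 0.901% in the knockout (Clopper-Pearson interval 0.874% to 0.928%) and 1.03% in wild type (1.01% to 1.05%) with cycloheximide. With harringtonine they were 0.967% in the knockout (0.929% to 1.01%) and 0.812% in wild type (0.793% to 0.832%). The share was lower in the knockout with cycloheximide and higher in the knockout with harringtonine. This share counts most the members with most reads and depends on the reads of all other genes. It need not follow the ratios below: with harringtonine the members' median ratio was -0.12, with 24 of 41 below the median gene. The members with most reads in wild type with harringtonine, EIF4G1 and EIF3A, were also below it, at -0.87 and -0.65. Why the share was higher in the knockout with harringtonine was not tested. Within the members the 13 eIF3 genes held a nearly constant share of 41.7% in the knockout and 43.2% in wild type with cycloheximide, and of 42.2% in the knockout and 44.0% in wild type with harringtonine.

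With cycloheximide the members lay slightly below the median gene in the knockout. Of the 41 compared, 26 were below it and 15 above, with a median log2 ratio of -0.14 (-0.59 on the deposited scale, where the median gene is at -0.44). EIF1B alone was at least 2-fold lower, where 3.24% of the 6045 genes were, and 0 were 2-fold higher, where 4.43% of genes were. At the 1.5-fold step 4 of 41 (9.76%) were lower, beside 12.8% of all genes, and 0 were higher, beside 15.8%. The members' ratios had an SD of 0.34 against 0.59 for all genes, with median counting errors of 0.18 and 0.31. Intervals excluded 0 on the low side for 12 of 41 members and on the high side for 1 (EIF1AX), beside 14.9% and 14.3% of all genes. With the effective reads halved they did so for 5 and 0, and no all-gene share was computed for that setting. The members had more reads than the genes compared, with medians of 255 and 96.0 in wild type with cycloheximide. Their intervals are therefore narrower, and neither these counts nor those below compare like with like. When each ratio was centred on genes of the same level decile instead, the members' median was 0.00437, with 20 below and 21 above: genes of the same level lay as low as the members did.

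With harringtonine, where the knockout is 1 library, the members' ratios spread more widely than with cycloheximide, as did those of all genes. Their SD was 0.50 against 0.72 for all genes, with median counting errors of 0.26 and 0.47. The members' median was -0.12, with 24 below the median gene and 17 above. When centred within level deciles it was -0.01, with 22 below and 19 above. EIF2B1 and EIF4EBP1 were at least 2-fold lower, where 6.58% of genes were, and 0 were 2-fold higher, where 6.72% were. At 1.5-fold, 10 of 41 (24.4%) were lower against 17.1% of all genes, and 1 (2.44%) was higher against 17.8%. Intervals excluded 0 on the low side for 9 and on the high side for 4 (EIF3M, EIF4A2, EIF1AX and EIF2S2), beside 10.6% and 7.91% of all genes, and with the effective reads halved for 6 and 1. The ratios with the 2 treatments, from 4 separate sets of libraries, lay on the same side of the median gene for 61.0% of members and 56.8% of all genes compared. Across the 41 members, which share libraries and depth, their Spearman rho was 0.18, beside 0.15 across all genes compared.

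**Figure D2:**
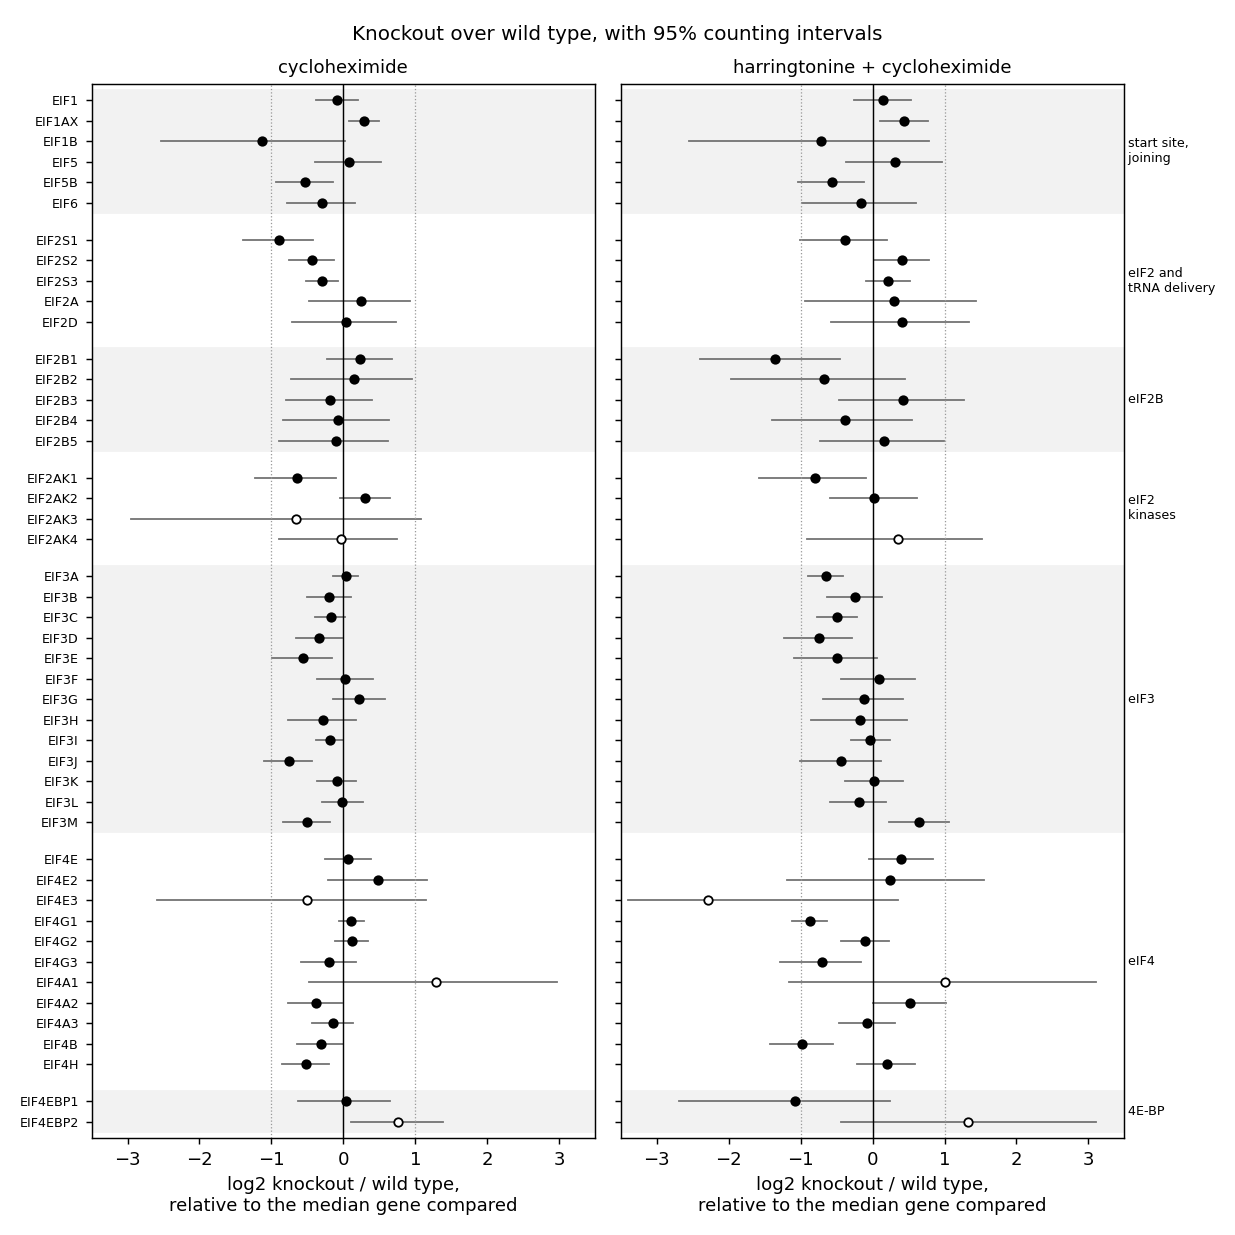
Log2 ratio of knockout over wild type for each member, relative to the median gene compared (vertical line at 0; dotted lines at 2-fold), with cycloheximide on the left and harringtonine on the right. Bars are 95% counting intervals on effective reads, cut at the edge of the axis, and open circles are members under the level filter. EIF2S1 (-0.90) and EIF3J (-0.76) lie on the low side with cycloheximide, and EIF4G1 (-0.87) and EIF4B (-0.98) with harringtonine.

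The 3 subunits of eIF2 itself were all below the median gene in the knockout with cycloheximide, as were 26 of the 41 members compared. With each ratio centred on genes of the same level decile, the members' median was 0.00437 and EIF2S1 was at -0.80. Such values are not given here for EIF2S2 and EIF2S3. EIF2S1 (ENSG00000134001, hg19 chromosome 14, 67826714 to 67853233, plus strand) encodes the alpha subunit, which carries the serine that the eIF2 kinases phosphorylate. It had authors' mean densities of 0.212 in the knockout and 0.537 in wild type with cycloheximide, and of 0.383 in the knockout and 0.611 in wild type with harringtonine. Its log2 ratio with cycloheximide was -0.90 (interval -1.40 to -0.42), from 42.8 effective reads in the knockout and 247 in wild type, and 4.28% of genes were lower. With harringtonine it was -0.39 (interval -1.01 to 0.20), an interval that includes 0.

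EIF2S2, the beta subunit, had densities of 0.903 in the knockout and 1.66 in wild type with cycloheximide, and of 1.80 in the knockout and 1.66 in wild type with harringtonine. It was below the median gene in the knockout with cycloheximide, at -0.43 (interval -0.75 to -0.13), and above it with harringtonine, at 0.40 (interval 0.01 to 0.78). EIF2S3 followed the same order, with -0.29 (interval -0.52 to -0.07) and 0.22 (interval -0.09 to 0.52) for densities of 1.61 in the knockout and 2.69 in wild type with cycloheximide, and of 2.51 in the knockout and 2.63 in wild type with harringtonine. The difference between the 2 knockout ratios, harringtonine minus cycloheximide, was 0.83 (interval 0.33 to 1.32) for EIF2S2, 0.50 (interval 0.12 to 0.88) for EIF2S3 and 0.50 (interval -0.27 to 1.27) for EIF2S1. EIF2A and EIF2D, which can deliver initiator tRNA without eIF2, were close to the median gene with cycloheximide, at 0.24 (interval -0.48 to 0.92) and 0.03 (interval -0.72 to 0.74), and at 0.29 and 0.40 with harringtonine.

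The exchange factor eIF2B was near the median gene with cycloheximide and uneven with harringtonine. Its 5 ratios with cycloheximide ran from -0.19 (EIF2B3) to 0.23 (EIF2B1), each with an interval that includes 0. EIF2B1 (ENSG00000111361, hg19 chromosome 12, 124104953 to 124118313, minus strand), the alpha subunit of the regulatory core that senses phosphorylated eIF2, had densities of 0.530 in the knockout and 0.614 in wild type with cycloheximide, and of 0.246 in the knockout and 0.772 in wild type with harringtonine. Its harringtonine ratio of -1.36 (interval -2.40 to -0.45) was the lowest of the members compared and rests on 11.6 effective reads in the knockout and 69.6 in wild type. The other core subunits EIF2B2, at -0.67 (interval -1.97 to 0.45), and EIF2B4, at -0.38 (interval -1.40 to 0.54), had intervals that include 0. So did EIF2B3, at 0.42, and the catalytic subunit EIF2B5, at 0.16. The listed hg19 interval of EIF2B5 overlaps 15 other listed genes, 11 of them on its strand and EIF4G1 among them, which leaves its count uncertain. In all, 20 members overlap another listed gene, 18 of them only on the other strand, and no source used here says whether counting used strand.

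Of the 4 eIF2 kinases, EIF2AK1 and EIF2AK2 passed the level filter. EIF2AK1, the heme-regulated kinase HRI (ENSG00000086232, hg19 chromosome 7, 6061881 to 6098861, minus strand), had densities of 0.166 in the knockout and 0.352 in wild type with cycloheximide, and of 0.238 in the knockout and 0.508 in wild type with harringtonine. It was below the median gene in the knockout with both treatments, at -0.64 (interval -1.23 to -0.10) and -0.81 (interval -1.59 to -0.09), and it was the only member past 1.5-fold with an interval that excludes 0 in both. With the effective reads halved, both intervals include 0, with upper ends at 0.13 and 0.21. EIF2AK2, the interferon-induced kinase PKR that senses double-stranded RNA, was at 0.31 (interval -0.05 to 0.65) and 0.03 (interval -0.59 to 0.61). EIF2AK4, the amino acid sensor GCN2, had densities of 0.0727 in the knockout and 0.102 in wild type with cycloheximide, and of 0.0986 in the knockout and 0.0944 in wild type with harringtonine. EIF2AK3, or PERK, had 0.0157 in the knockout and 0.0337 in wild type with cycloheximide, and with harringtonine it is listed at 0 in the knockout, against 0.0407 in wild type, which is 6.90 effective reads.

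Factors of start-site selection and subunit joining went both ways. EIF1AX, which with eIF1 opens the small subunit for scanning, was on the high side in the knockout with both treatments, at 0.29 (interval 0.08 to 0.50) and 0.44 (interval 0.11 to 0.77), for densities of 1.32 in the knockout and 1.46 in wild type with cycloheximide, and of 1.46 in the knockout and 1.31 in wild type with harringtonine. EIF5B, the GTPase that joins the large subunit, was on the low side with both, at -0.53 (interval -0.94 to -0.14) and -0.57 (interval -1.04 to -0.12), for densities of 0.253 in the knockout and 0.497 in wild type with cycloheximide, and of 0.478 in the knockout and 0.866 in wild type with harringtonine. EIF1, the gatekeeper of start-codon choice, was at -0.08 (interval -0.37 to 0.20) and 0.14 (interval -0.25 to 0.53). Its paralogue EIF1B had the lowest cycloheximide ratio of the members, -1.14 (interval -2.54 to 0.02), on 6.91 effective reads in the knockout and 47.0 in wild type, so the interval includes 0, and reads shared by EIF1 and EIF1B, which are close in sequence, could have gone to either. EIF5, the GTPase-activating protein of eIF2, was at 0.08 (interval -0.39 to 0.53) and 0.31 (interval -0.37 to 0.96). EIF6, which keeps the large subunit apart, was at -0.30 (interval -0.78 to 0.16) and -0.16 (interval -0.98 to 0.60).

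The 13 subunits of eIF3 form 1 complex, yet their densities differed by up to 20.1 times in the knockout and 23.3 times in wild type with cycloheximide, between EIF3F and EIF3I. The length that the authors divided by is not known, and the longest transcript listed for EIF3F has 7540 bases, against 1458 for EIF3I. Across the 13 subunits listed length and wild-type density had a Spearman rho of -0.60, beside -0.32 across all genes compared. Their knockout ratios with cycloheximide lay closer together, with a median of -0.19, an SD of 0.27 and 10 of 13 below the median gene. Their median counting error was 0.16, so counting makes up part of that spread. Among all 41 members compared 26 were below the median gene, and with each ratio centred on genes of the same level decile the members' median was 0.00437.

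EIF3J (ENSG00000104131, hg19 chromosome 15, 44829255 to 44855227, plus strand), the loosely bound subunit that helps eIF3 on and off the small subunit, stood lowest of the complex with cycloheximide. It had densities of 0.763 in the knockout and 1.76 in wild type with cycloheximide, and of 0.755 in the knockout and 1.24 in wild type with harringtonine, which gives ratios of -0.76 (interval -1.11 to -0.43) with cycloheximide and -0.43 (interval -1.01 to 0.11) with harringtonine. When centred within level deciles, EIF3J was at -0.56 with cycloheximide, short of 1.5-fold. EIF3E, at -0.57 (interval -1.0 to -0.16), and EIF3M, at -0.51 (interval -0.84 to -0.19), were next with cycloheximide, followed by EIF3D, a cap-binding subunit, at -0.33 (interval -0.66 to -0.02). EIF3G, at 0.22 (interval -0.15 to 0.57), was the highest.

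With harringtonine the subunits spread over a wider range. EIF3A, the large scaffold of the complex, had densities of 1.77 in the knockout and 3.39 in wild type, against 1.39 in the knockout and 1.85 in wild type with cycloheximide. Its knockout ratio was -0.65 (interval -0.89 to -0.41) with harringtonine and 0.03 (interval -0.15 to 0.21) with cycloheximide. Centred within level deciles, the harringtonine ratio of EIF3A was -0.53, short of 1.5-fold. EIF3D had the lowest ratio, -0.75 (interval -1.23 to -0.29), for densities of 1.19 in the knockout and 2.43 in wild type, and after EIF3A came EIF3E at -0.50 (interval -1.09 to 0.06) and EIF3C at -0.49 (interval -0.77 to -0.21). EIF3M stood opposite, at 0.65 (interval 0.23 to 1.06) for densities of 0.872 in the knockout and 0.677 in wild type, and of the 41 compared it alone was at least 1.5-fold higher. EIF3M densities with cycloheximide were 0.423 in the knockout and 0.820 in wild type, so the knockout was the lower of the pair with cycloheximide and the higher with harringtonine.

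EIF3C has a near-identical copy, EIF3CL, and reads that match both cannot be told apart, so both values are uncertain. EIF3CL had densities of 2.92 in the knockout and 4.59 in wild type with cycloheximide, and of 3.87 in the knockout and 6.87 in wild type with harringtonine, and EIF3C of 1.36 in the knockout and 2.10 in wild type with cycloheximide, and of 1.85 in the knockout and 3.16 in wild type with harringtonine. Their knockout ratios were close to each other, -0.21 for EIF3CL and -0.18 for EIF3C with cycloheximide, and -0.54 and -0.49 in the same order with harringtonine.

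Among the eIF4 genes EIF4B and the scaffolds EIF4G1 and EIF4G3 had the lowest knockout ratios with harringtonine among those compared. EIF4G1 (ENSG00000114867, hg19 chromosome 3, 184032283 to 184053146, plus strand), the main scaffold that links cap, helicase and eIF3, had densities of 1.49 in the knockout and 1.87 in wild type with cycloheximide, and of 1.65 in the knockout and 3.69 in wild type with harringtonine. Its ratio was 0.11 (interval -0.06 to 0.28) with cycloheximide and -0.87 (interval -1.12 to -0.64) with harringtonine, a value from 177 effective reads in the knockout and 761 in wild type. The related scaffold EIF4G3 was at -0.20 (interval -0.59 to 0.18) and -0.71 (interval -1.29 to -0.16). EIF4B (ENSG00000063046, hg19 chromosome 12, 53399942 to 53435993, plus strand), which stimulates the helicase, had densities of 0.556 in the knockout and 0.940 in wild type with cycloheximide, and of 0.705 in the knockout and 1.69 in wild type with harringtonine, and ratios of -0.31 (interval -0.64 to 0.0011) with cycloheximide and -0.98 (interval -1.42 to -0.55) with harringtonine. EIF4G2, a scaffold that does not bind eIF4E, was at 0.12 (interval -0.11 to 0.34) and -0.11 (interval -0.44 to 0.22).

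EIF4H and EIF4A2 showed the other order. EIF4H, a cofactor of the helicase like EIF4B, had densities of 0.809 in the knockout and 1.58 in wild type with cycloheximide, and of 1.54 in the knockout and 1.64 in wild type with harringtonine, with ratios of -0.52 (interval -0.85 to -0.20) with cycloheximide and 0.19 (interval -0.22 to 0.59) with harringtonine. EIF4A2 had densities of 0.321 in the knockout and 0.571 in wild type with cycloheximide, and of 0.547 in the knockout and 0.466 in wild type with harringtonine, with ratios of -0.39 (interval -0.77 to -0.02) and 0.52 (interval 0.01 to 1.02). The cap-binding protein EIF4E was at 0.07 (interval -0.26 to 0.39) and 0.40 (interval -0.06 to 0.84), and its relative EIF4E2, a translational repressor, was at 0.49 (interval -0.22 to 1.16) and 0.24 (interval -1.19 to 1.54). EIF4A3, a helicase of the exon junction complex rather than of initiation, was at -0.14 (interval -0.43 to 0.14) and -0.07 (interval -0.47 to 0.32). EIF4A1 had densities of 0.0798 in the knockout and 0.0446 in wild type with cycloheximide, and of 0.138 in the knockout and 0.0839 in wild type with harringtonine, on 4.60 effective reads in the knockout and 5.37 in wild type with harringtonine. EIF4E3 had densities of 0.00850 in the knockout and 0.0164 in wild type with cycloheximide, and of 0.00589 in the knockout and 0.0352 in wild type with harringtonine.

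The 4E-binding proteins, which sequester eIF4E until mTOR phosphorylates them, rest on few footprints. EIF4EBP1 had densities of 0.628 in the knockout and 0.835 in wild type with cycloheximide, and of 0.295 in the knockout and 0.761 in wild type with harringtonine. Its ratios were 0.03 (interval -0.63 to 0.66) with cycloheximide and -1.08 (interval -2.69 to 0.24) with harringtonine, where the knockout had 5.70 effective reads. EIF4EBP2 had higher densities in the knockout than in wild type with both treatments, with means of 0.104 in the knockout and 0.0834 in wild type with cycloheximide, and of 0.0509 in the knockout and 0.0249 in wild type with harringtonine, and with cycloheximide its ratio was 0.76 (interval 0.11 to 1.39). It lies under the level filter, with 7.0 effective reads in the knockout and 6.57 in wild type with harringtonine.

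Harringtonine over cycloheximide, which uses the same 4 means as the ratios above, put EIF4G1, EIF3A and EIF4B well above the median gene in wild type and near it in the knockout. In the knockout the lowest member ratios were those of EIF2B1, at -1.38 (interval -2.43 to -0.46), and EIF4EBP1, at -1.36 (interval -2.97 to -0.04), the only 2 called lower where 6.82% of genes were, and 0 were called higher where 5.51% were. In wild type 0 members were called higher and 0 lower, where 3.41% and 3.31% of genes were. The highest in wild type were EIF4G1, at 0.86 (interval 0.73 to 1.0), EIF3A, at 0.76 (interval 0.62 to 0.90), EIF2B2, at 0.75 (interval 0.06 to 1.43), EIF4B, at 0.74 (interval 0.50 to 0.97), and EIF5B, at 0.69 (interval 0.41 to 0.96). In the knockout EIF4G1 had -0.13 (interval -0.39 to 0.13), EIF3A 0.08 (interval -0.19 to 0.34) and EIF4B 0.07 (interval -0.43 to 0.55). EIF2B2 had -0.07 (interval -1.45 to 1.19) there, an interval that includes its wild-type value. EIF5B had 0.65 (interval 0.09 to 1.19), and of these 5 it alone had a knockout value close to that in wild type. EIF3J was the lowest in wild type, at -0.61 (interval -0.92 to -0.32), with -0.29 (interval -0.89 to 0.28) in the knockout. Intervals excluded 0 on the low side for 2 members in the knockout and 4 in wild type, where 6.4% and 11% of genes did, and on the high side for 6 and 11 in the same order, where 8.95% and 15.7% did. With the effective reads halved, the knockout interval of EIF4EBP1 includes 0. EIF4EBP2, under the level filter, was at -1.30 (interval -2.72 to -0.10) in the knockout and -1.86 (interval -3.28 to -0.70) in wild type. The members' median was 0.15 in the knockout and 0.08 in wild type.

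**Figure D3:**
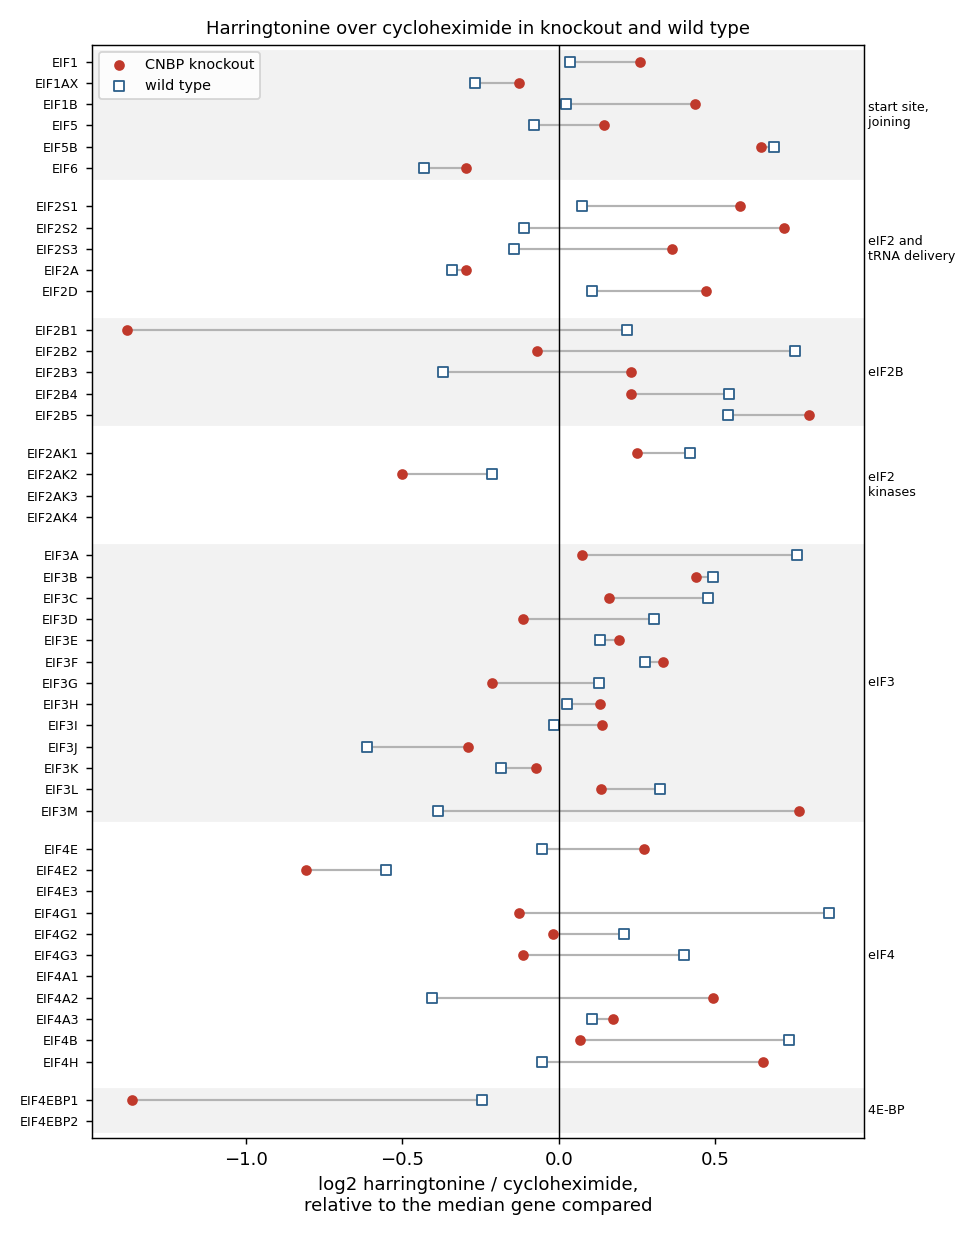
Log2 ratio of harringtonine over cycloheximide for the 41 members compared, relative to the median gene, in the CNBP knockout (filled circles) and wild type (open squares), joined by a line for each gene; counting intervals are left out here. The longest lines are those of EIF2B1, EIF3M and EIF4EBP1, and EIF5B has nearly the same value in both.

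The interaction, the knockout ratio with harringtonine minus that with cycloheximide, sets both knockout ratios side by side. Negative with an interval that excludes 0 were EIF2B1, at -1.60 (interval -2.68 to -0.53), EIF4G1, at -1.0 (interval -1.29 to -0.70), EIF3A, at -0.69 (interval -0.99 to -0.39), and EIF4B, at -0.67 (interval -1.21 to -0.13). Positive with such an interval were EIF3M, at 1.15 (interval 0.62 to 1.68), EIF4A2, at 0.90 (interval 0.27 to 1.52), EIF2S2, at 0.83 (interval 0.33 to 1.32), EIF4H, at 0.70 (interval 0.18 to 1.22), and EIF2S3, at 0.50 (interval 0.12 to 0.88). EIF4EBP1, at -1.12 (interval -2.72 to 0.48), EIF2B2, at -0.83 (interval -2.30 to 0.65), and EIF2B3, at 0.60 (interval -0.46 to 1.66), were as far from 0 on few reads. Interaction intervals add both counting errors as a normal approximation. Of the 41 members 1 was called higher, where 9.25% of genes were, and 2 lower, where 10.9% were. The interval excluded 0 for 5 on the high side and 4 on the low side, beside 8.34% and 7.46% of all genes. Each of these values rests on the single knockout library with harringtonine.

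The authors' deposited table also holds a TE column for each treatment, whose meaning the header does not give. In the authors' deposited table TE minus LFC, the log2 ratio of wild type over knockout, was the same number with both treatments for all 12241 rows that have both (within 1e-06), so TE is the LFC plus 1 term per gene that does not depend on the drug. No source used here explains the term, and no RNA values were used. In the authors' deposited table the members' term had a median of 0.04 and ran from -0.26 (EIF3C) to 0.28 (EIF4A2), while the quartiles of all genes compared were -0.10 and 0.11. It reached 1 in size for 0 of 46 members and for 35 of 6045 genes compared.

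In the authors' deposited table the term was small, and it was above 0 for 27 of 46 members (58.7%), beside 51.6% of all genes compared. Some roles, seen afterwards, were less even. All 4 kinases were below 0 (-0.14 for EIF2AK1, -0.12 for EIF2AK4, -0.10 for EIF2AK3 and -0.04 for EIF2AK2). The 3 eIF2 subunits and EIF2D were also below 0, while EIF2A was above it, at 0.04. Above 0 were 5 of 6 start-site and joining genes, 4 of 5 eIF2B genes, 9 of 13 eIF3 genes and 7 of 11 eIF4 genes. The near-identical EIF3CL and EIF3C had terms of -1.21 and -0.26 in the authors' deposited table, although their footprint ratios were close. With the term added, the authors' deposited table gives TE values with cycloheximide, wild type over knockout, of 1.74 for EIF1B, 1.22 for EIF3J, 1.21 for EIF2S1, 1.13 for EIF3E and 1.11 for EIF4A2, the 5 highest of the members, and of -0.40 for EIF4EBP2 and -0.71 for EIF4A1, the lowest. These columns are not centred, and their median over the genes compared was 0.45 in that direction.

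**Figure D4:**
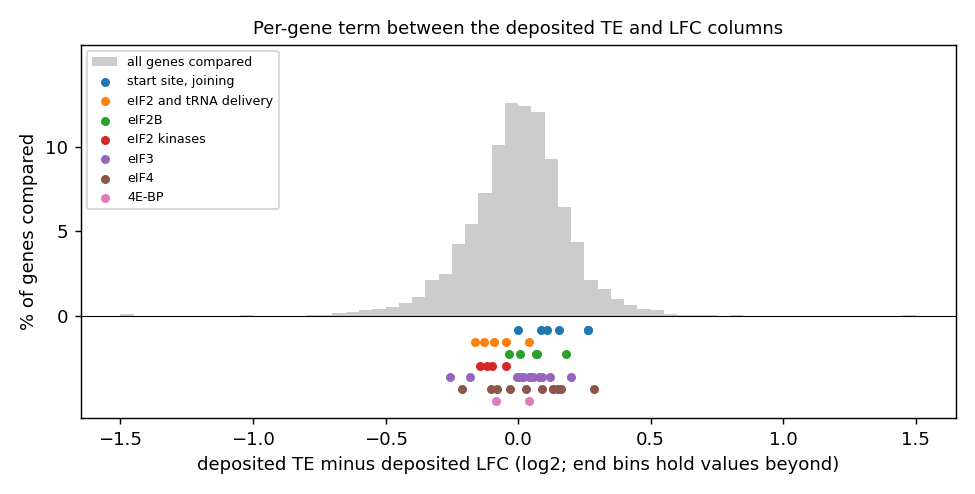
Deposited TE minus deposited LFC (log2, horizontal axis) as a histogram of the percentage of the 6045 genes compared (vertical axis), with the 46 members as points under it, in 1 row and colour per role and with no vertical scale of their own. The members lie between -0.26 and 0.28, the 4 eIF2 kinases all left of 0.

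Other genes of the pathway were taken from lists by role. Of 13 further cap, poly(A)-tail and scanning partners, 10 were compared, with a median knockout ratio of -0.25 with cycloheximide and 8 below the median gene. With cycloheximide 0 were called higher and 0 lower, where 4.43% and 3.24% of all genes were. With harringtonine their median was -0.04. Lowest of them was DHX29, a helicase that helps scanning through structured leaders, at -0.95 (interval -1.72 to -0.26) with cycloheximide and 0.41 (interval -0.34 to 1.13) with harringtonine. Highest was EIF4ENIF1, the eIF4E transporter, at 0.79 (interval -0.08 to 1.61) and -0.94 (interval -2.48 to 0.35). With harringtonine MKNK1, a kinase of eIF4E, was the 1 of 10 called higher, where 6.72% of all genes were. Its ratio was 1.16 (interval 0.05 to 2.26), on 15.3 effective reads in the knockout and 16.1 in wild type.

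Of 9 partners in recycling and start-site selection all 9 were compared, with medians of -0.17 with cycloheximide and 0.17 with harringtonine. With both treatments 0 were called either way. Of all genes 4.43% were called higher and 3.24% lower with cycloheximide, and 6.72% and 6.58% with harringtonine. ABCE1, the ATPase that splits ribosomes after termination, was the lowest with cycloheximide at -0.71 (interval -1.14 to -0.31), and NMT1, which myristoylates new proteins, the highest at 0.73 (interval 0.30 to 1.16). Of 9 other regulators of eIF2 phosphorylation 6 were compared, with medians of -0.08 with cycloheximide and -0.22 with harringtonine. PPP1R15A, the stress-induced subunit that directs a phosphatase to eIF2, was the 1 of 6 called higher with cycloheximide, where 4.43% of all genes were. Its ratio was 1.21 (interval 0.31 to 2.08), for densities of 0.192 in the knockout and 0.113 in wild type. That value rests on 20.6 effective reads in the knockout and 27.6 in wild type, and the ratio with harringtonine was -0.88 (interval -2.96 to 0.77). ATF4, the transcription factor whose translation rises when eIF2 is phosphorylated, was the lowest of these with cycloheximide at -0.47 (interval -1.06 to 0.08), and the highest with harringtonine at 0.57 (interval -0.23 to 1.35).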

How the data were processed

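Ribosome footprints were measured in 12 HEK293 samples in 4 groups. TopHat and the build hg19 are named in the submitters' processing notes, and no source used here names the counting tool or gene models. The authors deposited 1 mean signal per gene and group, a ribosome density on an unstated scale; the knockout means are the same deposited signal, entered as another kind of value because error cells stand among them. Both the LFC and the TE deposited by the authors are log2 values, entered as a score for the same reason, and the authors' LFC equals log2 of wild type over knockout.

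Rows without a knockout value (918), on alternate sequences (290) or with an LFC that differed from the means' ratio (175) were set aside; of the 12091 others with no mean at 0, the 6045 with a level over the median were compared. Ratios used no pseudocount and were centred on the median of those genes (-0.44, -0.28, 0.27, 0.11 for knockout over wild type with cycloheximide and with harringtonine, and for the drug in the knockout and in wild type). Low products of density and length repeat in steps of 1 read; dividing by the mean step gave effective reads, and Clopper-Pearson intervals on them cover counting error only. In the knockout with harringtonine, 1 library, 7.47% of products were whole multiples of the step within 0.01, so the listed length is not shown to be the one used for most genes and effective reads are approximate. The calculation was tested on simulated data with 1 random count per gene and group. Those data lack means over libraries of unequal depth and an uncertain length. They therefore cannot show that the intervals hold for the deposited means.

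The members, the lists and the tract definition were chosen with earlier results of these data known. Named in full were members at least 1.5-fold from the median gene in a knockout comparison, or 2-fold in a drug comparison, with an interval that excludes 0, the extremes of each role, members without a usable ratio, and the paralogue pairs; further members are named from the same ratios. CYFIP1 of the partner lists was not analysed here. Python 3.11.15, pandas 2.3.3, numpy 2.4.6, scipy 1.17.1 and matplotlib 3.10.9 were used.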

Additional observations from a re-analysis of the deposited data

How the results depend on the processing

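Group means allow no test, and effective reads limit these values. The values below differ from those reported under the setting named, over 41 members of 6045 genes unless sizes are given. In brackets, a drug's name stands for knockout over wild type with it, and "drug" for harringtonine over cycloheximide. Without centring, the members' median was -0.59 (cycloheximide), -0.40 (harringtonine), 0.42 (drug in knockout), 0.19 (drug in wild type), 0.23 (interaction). Members called 2-fold higher were 2 (drug in knockout), 2 (interaction). Members called 2-fold lower were 5 (cycloheximide), 7 (harringtonine), 1 (interaction). Members past 1.5-fold higher were 0 (harringtonine). Members past 1.5-fold lower were 21 (cycloheximide), 16 (harringtonine), where the median gene was at -0.44 and -0.28. No all-gene share at 1.5-fold was computed for the alternatives. Genes called either way numbered 903 (cycloheximide). With centring within level deciles, the members' median was 0.0044 (cycloheximide). Members past 1.5-fold higher were 2 (harringtonine). With a pseudocount of 1, called higher at 2-fold were 0 (interaction) members. Called lower at 2-fold were 0 (cycloheximide), 0 (harringtonine), 0 (drug in knockout), 0 (interaction) members. At least 1.5-fold higher were 0 (harringtonine) members. At least 1.5-fold lower were 0 (cycloheximide), 4 (harringtonine) members. Of all genes, those called numbered 12 (cycloheximide), 30 (harringtonine), 20 (drug in knockout), 42 (drug in wild type), 54 (interaction). Without the filter on low values (45 members of 12091 genes), members called 2-fold higher were 1 (cycloheximide), 1 (harringtonine), 1 (drug in wild type). Members called 2-fold lower were 4 (harringtonine), 1 (drug in wild type), 4 (interaction). Members past 1.5-fold higher were 2 (cycloheximide), 2 (harringtonine). Members past 1.5-fold lower were 8 (cycloheximide). Genes called either way numbered 1968 (cycloheximide), 2916 (harringtonine), 2863 (drug in knockout), 1744 (drug in wild type), 3835 (interaction). Above a mean density of 1 (18 members of 721 genes), the median member was at 0.048 (cycloheximide), 0.0031 (drug in knockout). Called higher at 2-fold were 0 (interaction) members. Called lower at 2-fold were 0 (cycloheximide), 0 (harringtonine), 0 (drug in knockout), 1 (interaction) members. At least 1.5-fold higher were 0 (harringtonine) members. At least 1.5-fold lower were 0 (cycloheximide), 2 (harringtonine) members. Of all genes, those called numbered 50 (cycloheximide), 58 (harringtonine), 39 (drug in knockout), 68 (drug in wild type), 86 (interaction). With at least 100 effective reads in each group of the ratio (16 members of 697 genes for cycloheximide, 7 of 322 for harringtonine, 7 of 326 for drug in knockout, 24 of 1015 in wild type and 7 of 321 for the interaction), the members' median was 0.023 (cycloheximide), 0.080 (harringtonine), -0.083 (drug in knockout), -0.091 (drug in wild type), -0.28 (interaction). Members called 2-fold higher were 0 (interaction). Members called 2-fold lower were 0 (cycloheximide), 0 (harringtonine), 0 (drug in knockout), 1 (interaction). Members past 1.5-fold lower were 0 (cycloheximide), 1 (harringtonine). Genes called either way numbered 52 (cycloheximide), 27 (harringtonine), 14 (drug in knockout), 61 (drug in wild type), 33 (interaction). Upper-quartile centring moved none of these counts by over 1.5 times and no median by more than its counting error. With a pseudocount or a stricter filter, fewer low genes can pass 2-fold by construction. The cause of the other shifts was not tested. The split of calls (genes higher, then lower) depends on the centring, filter and pseudocount. For the knockout with cycloheximide it was 268 and 196 as reported, 59 and 844 without centring and 216 and 238 within level deciles, with 47 and 3 above a density of 1, 51 and 1 with at least 100 reads and 9 and 3 with a pseudocount; for the knockout with harringtonine 406 and 398, and 190 and 757 without centring, with a pseudocount 5 and 25; for the drug in the knockout 333 and 412, and 646 and 204 without centring, in wild type 206 and 200, and 270 and 135 without centring (47 and 14 with at least 100 reads, 45 and 23 above a density of 1, 38 and 4 with a pseudocount), and for the interaction 559 and 656, and 779 and 480 without centring (6 and 27 with at least 100 reads, 30 and 56 above a density of 1, 14 and 40 with a pseudocount). With a pseudocount the drug in the knockout gave 12 and 8, and with at least 100 reads 8 and 6. Of the single members named, 83 values stayed within their own counting interval under these alternatives and 10 did not, and 0 called values changed sign. The 1.5-fold step was lost by EIF3J with cycloheximide within level deciles (-0.56), above a density of 1 (-0.53) and with a pseudocount (-0.56), by EIF3A with harringtonine within level deciles (-0.53), above a density of 1 (-0.53) and with at least 100 reads (-0.47), by EIF3M with harringtonine without centring (0.36), without the filter (0.58) and with a pseudocount (0.22), and by EIF4EBP2 with cycloheximide under no centring (0.32) and a pseudocount (0.11). A pseudocount also took EIF2S1, EIF2AK1, EIF2B1 and EIF4G3 under it, and EIF2B1, EIF4EBP1, EIF4EBP2 and EIF3M under 2-fold in the drug ratios and the interaction where they had passed it. With the effective reads halved, an alternative chosen after seeing the data, intervals excluded 0 below for 5 members with cycloheximide in place of 12, and for 6 with harringtonine in place of 9; those of EIF2S1, EIF3J, EIF4G1, EIF4B and EIF2B1 still excluded 0, and those of EIF2AK1 and EIF4G3 did not. No paired analysis was possible because the table holds means per group and no value per sample, and for the same reason leaving out a replicate, a replicate block and a count test were not run.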
